A study of Mus musculus with 12 samples.

Results

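Metallothioneins are small, cysteine-rich proteins of the cytosol that bind zinc, copper and cadmium and scavenge oxidants, and in mouse kidney their main genes are Mt1 and Mt2. Both are switched on by zinc through the metal-sensing transcription factor MTF-1, and also by glucocorticoids and by interleukin-6 signalling through STAT3. Slc30a1 encodes ZnT1, the zinc exporter of the plasma membrane and another target of MTF-1, whereas Slc39a14 encodes ZIP14, an importer of zinc, iron and manganese that interleukin-6 induces in mouse liver. These 4 genes were followed here in the mouse renal cortex by summing, for each gene, the deposited transcripts that map to it. The 4 genes were found among 13465 genes and accounted for 9 of 25790 deposited transcripts.

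Bulk RNA sequencing covered 4 groups of 3 libraries. The CKO IRI group comprised mice in which Gpx3, encoding an extracellular glutathione peroxidase, was deleted in renal tubular epithelium, taken after 30 min of bilateral renal ischemia and 48 h of reperfusion (ischemia-reperfusion injury, IRI). The WT IRI group was wild type with the same injury, the CKO sham group carried the deletion and had sham surgery, and the WT sham group was wild type with sham surgery. The labels give neither strain, age nor the Cre driver of the deletion, and do not say whether each library was 1 animal. The p-values below therefore describe variation among libraries, which may be technical. The series was designed to ask how tubular GPX3 acts on the injured kidney.

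Values were read as FPKM, fragment counts scaled to transcript length and library size, a scale on which levels of different genes can be compared. Library sums lay between 391002 and 422328 FPKM, and the read depth is unknown. WT IRI 13 held 3.94% of its summed values in mitochondrial genes, against 7.36% to 12.3% in the other libraries. Although the extraction protocol in the labels describes joint tissue, all 6 loop and distal nephron markers and all 5 podocyte markers were measured, and of 6 joint markers 1 was, Comp, at 1.63 FPKM or less. Gpx3 itself averaged 2946 ± 407 FPKM in CKO sham and 5170 ± 619 FPKM in WT sham, but 3176 ± 490 FPKM in CKO IRI and 2477 ± 1275 FPKM in WT IRI (SD, n = 3 each), so that the libraries labelled CKO IRI were not lower in the deleted gene. In sham kidneys the 3 CKO libraries all lay below the 3 WT libraries, a log2 difference of -0.81 that did not pass over all genes (limma adjusted p = 0.755). Directions between genotypes after IRI are therefore given for libraries as labelled. WT IRI 49 had the lowest Gpx3 value, 1075 FPKM, and results that rest on it are given with and without it.

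The metallothionein genes lie side by side on chromosome 8 of build GRCm38, both on the plus strand, with Mt2 at 94172664 to 94173568 and Mt1 at 94179082 to 94180327, 5513 bases apart. Slc39a14 lies on chromosome 14 (70303469 to 70351425, minus strand) and Slc30a1 on chromosome 1 (191906767 to 191913247, plus strand). Because metal response elements stand in front of MTF-1 targets, the bases before the annotated starts of Mt1, Mt2 and Slc30a1 are shown here from RefSeq (GRCm38.p6), cut off before the first transcribed base. All are plus-strand sequences, 5′ to 3′, and capitals mark each match to the core words TGCACNC or TGCGCNC on either strand.
Mt1, chr8:94178839-94179081: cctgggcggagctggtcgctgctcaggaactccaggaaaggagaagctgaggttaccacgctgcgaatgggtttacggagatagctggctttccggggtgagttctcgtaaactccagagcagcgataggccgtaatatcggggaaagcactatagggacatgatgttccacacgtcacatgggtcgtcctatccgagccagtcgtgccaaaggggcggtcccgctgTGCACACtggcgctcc
Mt2, chr8:94172368-94172617: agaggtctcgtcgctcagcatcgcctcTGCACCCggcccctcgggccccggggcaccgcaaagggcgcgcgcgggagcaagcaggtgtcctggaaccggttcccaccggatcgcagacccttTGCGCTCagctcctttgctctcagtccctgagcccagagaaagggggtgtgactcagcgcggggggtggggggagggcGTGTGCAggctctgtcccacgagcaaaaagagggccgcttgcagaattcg
Slc30a1, chr1:191906531-191906766: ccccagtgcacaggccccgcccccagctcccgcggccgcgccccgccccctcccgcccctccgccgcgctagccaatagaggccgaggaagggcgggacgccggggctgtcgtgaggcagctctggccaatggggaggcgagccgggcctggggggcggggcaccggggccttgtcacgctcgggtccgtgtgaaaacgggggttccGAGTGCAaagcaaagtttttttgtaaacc
The Mt2 window held 3 matches, which 1.26% of the 32851 RefSeq promoter windows of 250 bases reached. The Mt1 and Slc30a1 windows, cut to 243 and 236 bases, held 1 each. Of the uncut windows of 250 bases, 21.4% held at least 1. In the full windows of 300 bases, which run 50 bases past the RefSeq start, Mt1 held 3 matches, Mt2 4 and Slc30a1 2, counts reached by 1.97%, 0.517% and 7.11% of windows. A match describes letters only and does not show that MTF-1 binds there.

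Both metallothionein genes rose after ischemia-reperfusion in wild-type kidneys. Mt1 measured 945, 680 and 300 FPKM in WT IRI 13, 24 and 49, against 166, 177 and 201 FPKM in WT sham 1, 2 and 3. Each injured library was above each sham library, but WT IRI 49 stood closer to the sham libraries than to WT IRI 13. The group means were 642 ± 324 FPKM in WT IRI and 181 ± 17.7 FPKM in WT sham (SD, n = 3 each), a ratio of 3.54, and the change on the log2(FPKM + 1) scale was 1.67 (SE 0.34, limma adjusted p = 0.00446). Mt2 measured 660, 616 and 183 FPKM in WT IRI 13, 24 and 49, against 65.3, 68.9 and 84.4 FPKM in WT sham 1, 2 and 3. Again the injured and sham libraries did not overlap and WT IRI 49 was the lowest of the injured. The mean was 487 ± 264 FPKM in WT IRI and 72.9 ± 10.2 FPKM in WT sham (SD, n = 3 each), a ratio of 6.68, with a log2 change of 2.52 (SE 0.45, limma adjusted p = 0.00220). Of the 4 genes, 2 thus rose and none fell, in a comparison in which 25.1% of all 12469 tested genes rose and 11.9% fell, 37% in all. Genes whose libraries did not overlap made up 35.2% for those higher after injury and 19.5% for those lower. An exact permutation test of 3 against 3 libraries gave p = 0.1 for each of the 2 genes, the smallest value that design allows. In a bulk sample, more cells of a kind and more RNA per cell cannot be told apart.

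In knockout kidneys the same direction was seen at smaller size, and no member passed the threshold. Mt1 measured 404, 319 and 460 FPKM in CKO IRI 7, 15 and 29, against 314, 211 and 263 FPKM in CKO sham 1, 2 and 3. The lowest injured library, CKO IRI 15, was just above the highest sham library, CKO sham 1. The log2 change of Mt1 was 0.59 (95% interval -0.17 to 1.34, limma adjusted p = 0.329). Mt2 measured 264, 142 and 335 FPKM in CKO IRI 7, 15 and 29, against 124, 96.1 and 127 FPKM in CKO sham 1, 2 and 3, so that here too the libraries did not overlap. Genes without overlap made up 21.4% (higher after injury) and 10.1% (lower) of those tested in this comparison. The log2 change of Mt2 was 1.01 (95% interval 0.02 to 2.00, limma adjusted p = 0.197). limma called 0 of the 4 members here, where 5.7% of all tested genes rose and 1.48% fell (7.19% in all). Of the members, 1, Mt2, was at an unadjusted p under 0.05, as were 3000 of all 12469 tested genes. When each library was weighted by its own scatter (limma array weights), Mt1 and Mt2 passed in CKO, with log2 changes of 0.72 and 1.15 (limma adjusted p = 0.0218 and 0.0105). The weights raised the calls over all genes in this comparison to 3551, against 896 without them.

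**Figure D1:**
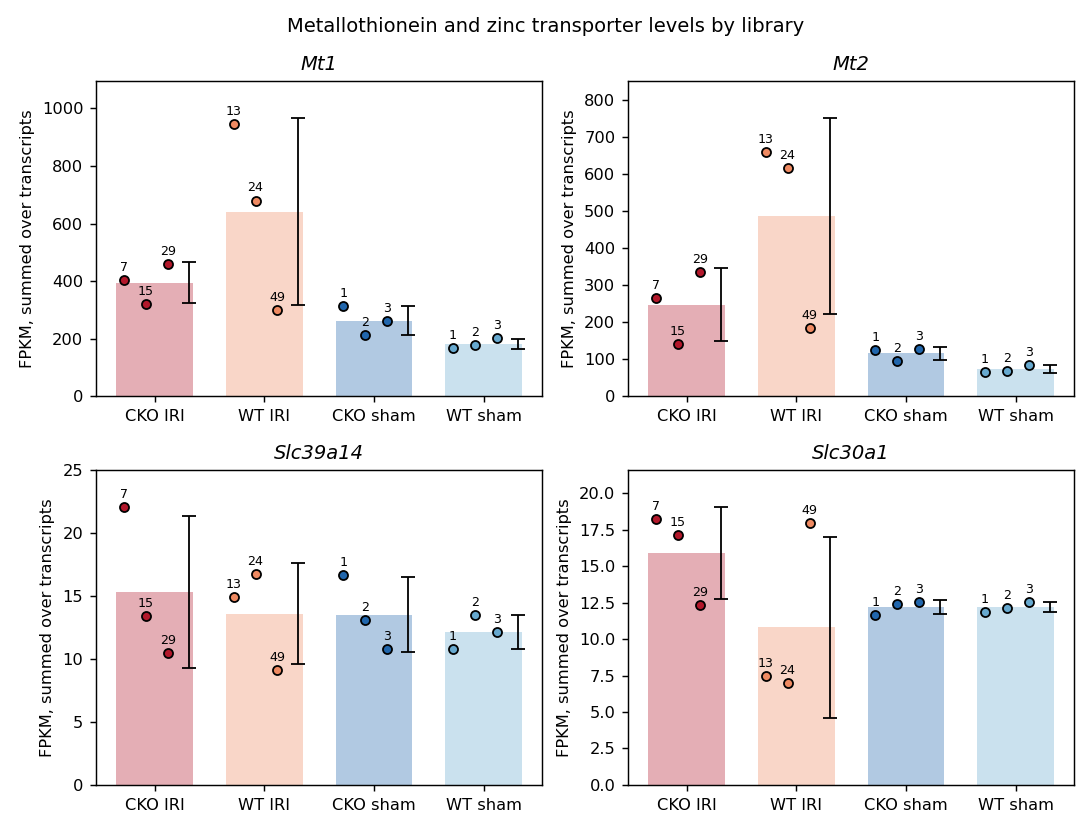
Level of each gene in every library (y axis, FPKM summed over transcripts; points are libraries with their label numbers, bars are group means and whiskers 1 SD, n = 3 each). Mt1 and Mt2 are highest in WT IRI 13 and 24, at 945 and 680 FPKM for Mt1, the same libraries in which Slc30a1 is lowest, while the 6 sham libraries of Slc30a1 lie between 11.7 and 12.5 FPKM.

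Over both genotypes, Mt2 ranged from 142 to 660 FPKM in the 6 IRI libraries (median 300), and from 65.3 to 127 FPKM in the 6 sham libraries (median 90.3). The 6 IRI libraries all lay above the 6 sham libraries, as for 12.7% of tested genes, while 4.11% lay wholly below. The log2 change averaged over the genotypes was 1.77 (SE 0.32, limma adjusted p = 0.00186), and the exact permutation test of 6 against 6 libraries gave its smallest possible two-sided value, p = 0.00216. Mt1 ranged from 300 to 945 FPKM in the IRI libraries (median 432) and from 166 to 314 FPKM in the sham libraries (median 206). These ranges overlapped, because WT IRI 49 lay below CKO sham 1. The averaged log2 change of Mt1 was 1.13 (SE 0.24, limma adjusted p = 0.00485, exact permutation p = 0.00433). Of all tested genes 25.6% rose in this averaged comparison and 11.8% fell, 37.4% in all, and of the 4 members 2 rose. By group means, both genes were ordered WT IRI, CKO IRI, CKO sham, WT sham, with the first pair of neighbours overlapping and the other neighbours not overlapping.

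Mt1 and Mt2 together made up 0.170%, 0.111% and 0.198% of the summed gene values in CKO IRI 7, 15 and 29 and 0.406%, 0.323% and 0.122% in WT IRI 13, 24 and 49. In sham kidneys their share was 0.104%, 0.0749% and 0.0950% in CKO sham 1, 2 and 3 and 0.0580%, 0.0628% and 0.0730% in WT sham 1, 2 and 3. WT IRI 13 thus held the highest share and WT sham 1 the lowest. Mt1 exceeded Mt2 in all 12 libraries, but by an unequal factor. The ratio of Mt1 to Mt2 FPKM was 1.53, 2.25 and 1.37 in CKO IRI 7, 15 and 29 and 1.43, 1.10 and 1.64 in WT IRI 13, 24 and 49. It was 2.53, 2.20 and 2.06 in CKO sham 1, 2 and 3 and 2.54, 2.57 and 2.38 in WT sham 1, 2 and 3. The ratio averaged 1.55 ± 0.39 over the IRI libraries and 2.38 ± 0.21 over the sham libraries (SD, n = 6 each, exact two-sided permutation p = 0.00649), a test chosen after the values had been seen. Within genotypes it averaged 1.72 ± 0.47 in CKO IRI and 2.26 ± 0.24 in CKO sham (SD, n = 3 each, exact permutation p = 0.3). It averaged 1.39 ± 0.27 in WT IRI and 2.50 ± 0.10 in WT sham (SD, n = 3 each, exact permutation p = 0.1, the smallest value possible). CKO IRI 15 was the injured library that kept a ratio within the sham range. Mt1 and Mt2 are paralogs, and the labels do not say how reads shared between them were assigned.

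**Figure D2:**
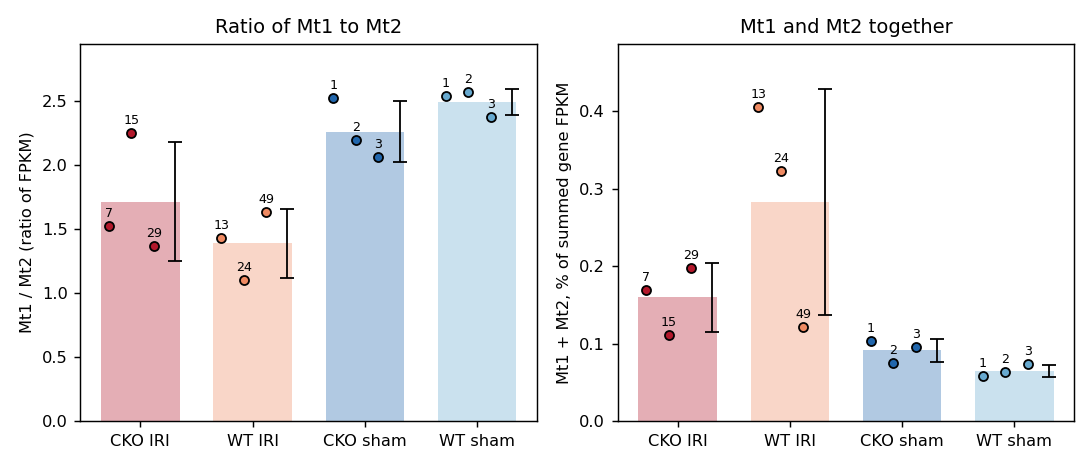
Ratio of Mt1 to Mt2 (left, ratio of FPKM) and both genes together as a percentage of the summed gene FPKM (right) in every library (points with label numbers; bars are group means, whiskers 1 SD, n = 3 each). The ratio lies between 1.10 and 1.64 in 5 of the 6 IRI libraries, with CKO IRI 15 at 2.25, and between 2.06 and 2.57 in the sham libraries.

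Most of each metallothionein sum came from 1 transcript. Mt1-201, of 549 spliced bases, made up 96.8% of the mean Mt1 level, and Mt2-201, of 511 bases, made up 98.5% of the mean Mt2 level. The minor transcript Mt1-202 measured 46.3 FPKM in WT IRI 13 and 19.0 FPKM in WT IRI 24, and between 4.07 and 8.91 FPKM in the other injured libraries. In the sham libraries it was between 1.38 and 2.99 FPKM.

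Markers of tubular injury were also raised in the injured libraries. The 6 injured-tubule markers (Havcr1, Lcn2, Krt20, Vcam1, Sox9 and Spp1) summed to 4273, 2346 and 6356 FPKM in CKO IRI 7, 15 and 29 and to 5186, 5587 and 3922 FPKM in WT IRI 13, 24 and 49. Their sums were 995 to 1148 FPKM in CKO sham and 956 to 1044 FPKM in WT sham. CKO IRI 15 and WT IRI 49 had the lowest marker sum of their injured groups and also the lowest Mt1 and Mt2. The highest marker sum, in CKO IRI 29, did not go with the highest metallothionein values. Spp1 made up most of every sum, at 5423 FPKM in CKO IRI 29. Havcr1 was also highest in CKO IRI 29 (408 FPKM), whereas Krt20 was highest in WT IRI 13 (158 FPKM). Lcn2, Vcam1 and Sox9 were highest in WT IRI 24 (465, 53.4 and 7.97 FPKM). The sum of the 8 proximal tubule markers ran opposite to Mt1 and Mt2 in WT IRI. It was 1072, 1342 and 2263 FPKM in WT IRI 13, 24 and 49. The sum was 1659 to 2526 FPKM in CKO IRI, 2769 to 3797 FPKM in CKO sham and 3611 to 3654 FPKM in WT sham. Slc34a1 and Slc27a2 held most of it, and not every marker followed it. Slc5a2 measured 124, 152 and 109 FPKM and Slc5a12 5.06, 15.8 and 6.74 FPKM in WT IRI 13, 24 and 49. All markers of both lists were measured and none was listed at 0 in any library. The part of these markers in the metallothionein difference was not tested.

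Slc30a1, the zinc exporter gene, split the wild-type injured libraries. Slc30a1 measured 18.3, 17.1 and 12.3 FPKM in CKO IRI 7, 15 and 29 and 7.48, 6.99 and 17.9 FPKM in WT IRI 13, 24 and 49. The sham values were 11.7, 12.4 and 12.5 FPKM in CKO sham 1, 2 and 3 and 11.9, 12.1 and 12.5 FPKM in WT sham 1, 2 and 3. WT IRI 13 and 24 were below every sham library, and WT IRI 49 and CKO IRI 7 and 15 were above every one. The SD over the 6 sham libraries was 0.04 on the log2(FPKM + 1) scale, and only 1.03% of tested genes varied less there, whereas over the 6 IRI libraries it was 0.58, more than in 84.9% of tested genes. The mean was 15.9 ± 3.16 FPKM in CKO IRI and 12.2 ± 0.46 FPKM in CKO sham (SD, n = 3 each; log2 change 0.34, 95% interval -0.28 to 0.95, limma adjusted p = 0.499). It was 10.8 ± 6.19 FPKM in WT IRI and 12.2 ± 0.34 FPKM in WT sham (SD, n = 3 each; log2 change -0.28, 95% interval -0.89 to 0.34, limma adjusted p = 0.461). Group means thus ran from CKO IRI over the nearly equal sham groups to WT IRI, with no neighbours that differed beyond the test. Without WT IRI 49 the change in WT was -0.68 (SE 0.16) and passed the threshold (limma adjusted p = 0.00702), in a fit that called 5244 of all genes, against 4608 with all libraries.

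Slc39a14, the ZIP14 importer gene, showed no difference that passed the threshold in any of the 6 contrasts. It measured 22.1, 13.5 and 10.5 FPKM in CKO IRI 7, 15 and 29 and 14.9, 16.8 and 9.15 FPKM in WT IRI 13, 24 and 49. The sham values were 16.7, 13.1 and 10.8 FPKM in CKO sham 1, 2 and 3 and 10.8, 13.5 and 12.1 FPKM in WT sham 1, 2 and 3. The groups overlapped throughout, with CKO IRI 7 highest and WT IRI 49 lowest. The change after IRI was 0.13 in CKO (log2, 95% interval -0.48 to 0.73, limma adjusted p = 0.821) and 0.12 in WT (95% interval -0.49 to 0.73, limma adjusted p = 0.761). The sign was lost in WT under quantile normalization (-0.012) and in CKO without CKO IRI 7 (-0.15). With array weights the change was 0.61 in CKO and 0.43 over both genotypes and passed narrowly (limma adjusted p = 0.0498 and 0.0499), in fits that called 3551 and 6257 of all genes, against 896 and 4669 without weights. The transcript Slc39a14-202 made up 86.3% of the mean level, Slc39a14-201 10.4% and Slc39a14-212 3.37%, and of these Slc39a14-201 was listed at 0 in CKO IRI 15 and Slc39a14-212 in CKO IRI 29.

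Between genotypes in sham kidneys, both metallothionein genes were higher in every knockout library than in any wild-type library, without passing the test over all genes. Mt1 averaged 263 ± 51.4 FPKM in CKO sham and 181 ± 17.7 FPKM in WT sham (SD, n = 3 each), a log2 difference of 0.52 (95% interval -0.24 to 1.28, limma adjusted p = 0.770). Mt2 averaged 116 ± 17.2 FPKM in CKO sham and 72.9 ± 10.2 FPKM in WT sham (SD, n = 3 each), a log2 difference of 0.66 (95% interval -0.33 to 1.65, limma adjusted p = 0.773). The exact permutation p was 0.1 for each, the smallest value for 3 against 3, and 15% of all tested genes were likewise higher without overlap, and 13.4% lower. limma called 0 of 12469 genes (0%) in this comparison, with 816 at an unadjusted p under 0.05 and 0 of the 4 members among them. The difference of Slc30a1 was 0.004 (95% interval -0.61 to 0.62) and that of Slc39a14 0.13 (95% interval -0.48 to 0.74). The macrophage and monocyte markers, all 8 of which were measured and of which Itgam was listed at 0 in CKO IRI 15, also summed higher in CKO sham, at 96.6 to 126 FPKM against 61.0 to 75.6 FPKM in WT sham. Lyz2 held a large part of this sum, averaging 39.8 FPKM in CKO sham and 22.0 FPKM in WT sham. Adgre1 alone had a lower mean in CKO sham, without overlap (0.92 to 1.22 against 1.35 to 1.48 FPKM in WT sham). In the injured groups the sum of the 8 markers was 116 to 154 FPKM in CKO IRI and 118 to 233 FPKM in WT IRI. The 5 fibroblast markers summed to 141 to 239 FPKM in CKO IRI and 121 to 322 FPKM in WT IRI, and to 49.98 to 80.5 FPKM in CKO sham and 44.8 to 53.0 FPKM in WT sham. The part of these cells in the metallothionein values was not tested.

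After IRI, the direction between the genotype labels was the opposite for the metallothioneins, and the libraries overlapped. Mt1 averaged 394 ± 70.9 FPKM in CKO IRI and 642 ± 324 FPKM in WT IRI (SD, n = 3 each), a log2 difference of -0.57 (95% interval -1.32 to 0.19, limma adjusted p = 0.357). Mt2 averaged 247 ± 97.9 FPKM in CKO IRI and 487 ± 264 FPKM in WT IRI (SD, n = 3 each), a log2 difference of -0.85 (95% interval -1.84 to 0.13, limma adjusted p = 0.293). Slc30a1 differed by 0.62 (95% interval 0.003 to 1.24, limma adjusted p = 0.238) and Slc39a14 by 0.14 (95% interval -0.47 to 0.75). limma called 0 of the 4 members, where 0.0241% of all tested genes were higher and 0.016% lower (0.0401% in all). Of the members, 1, Slc30a1, had an unadjusted p under 0.05, as had 2609 of all 12469 tested genes. Without WT IRI 49, 3 of the 4 members passed: Mt1 at -1.04 (limma adjusted p = 0.0211), Mt2 at -1.45 (limma adjusted p = 0.0211) and Slc30a1 at 1.02 (limma adjusted p = 0.00963). The count of all genes called moved at the same time to 1397, against 5 with all libraries. WT IRI 49 was the lowest WT IRI library in Mt1 and Mt2 and the highest in Slc30a1, so leaving it out favoured these differences. Over fits that each left out 1 library, the difference ranged from -1.04 to -0.21 for Mt1 and from -1.45 to -0.50 for Mt2. The limma adjusted p in these fits reached 0.802 and 0.669. With array weights Slc30a1 alone of the 4 passed (0.94, limma adjusted p = 0.0417), in a fit that called 723 of all genes.

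The genotype by injury interaction, the change after IRI in CKO less that in WT, was -1.08 for Mt1 (log2, 95% interval -2.16 to -0.01, limma adjusted p = 0.274) and -1.51 for Mt2 (95% interval -2.91 to -0.12, limma adjusted p = 0.254). It was 0.62 for Slc30a1 (95% interval -0.26 to 1.49, limma adjusted p = 0.412) and 0.01 for Slc39a14 (95% interval -0.85 to 0.87). None of the 4 passed, where limma called 0.00802% of tested genes in each direction (0.016% in all). Mt1 and Mt2 were the 2 members at an unadjusted p under 0.05, as were 2233 of all 12469 tested genes. Without WT IRI 49 the interaction was -1.56 for Mt1, -2.11 for Mt2 and 1.02 for Slc30a1, and all 3 passed (limma adjusted p = 0.0320, 0.0329 and 0.0380). That fit called 579 of all genes for the interaction, against 2 with all libraries. Whether the smaller metallothionein change in CKO passed therefore depended on 1 library, the lowest of WT IRI in both genes. Over fits that each left out 1 library, the interaction ranged from -1.56 to -0.73 for Mt1 and from -2.11 to -1.16 for Mt2. The limma adjusted p in these fits reached 0.492 and 0.455.

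**Figure D3:**
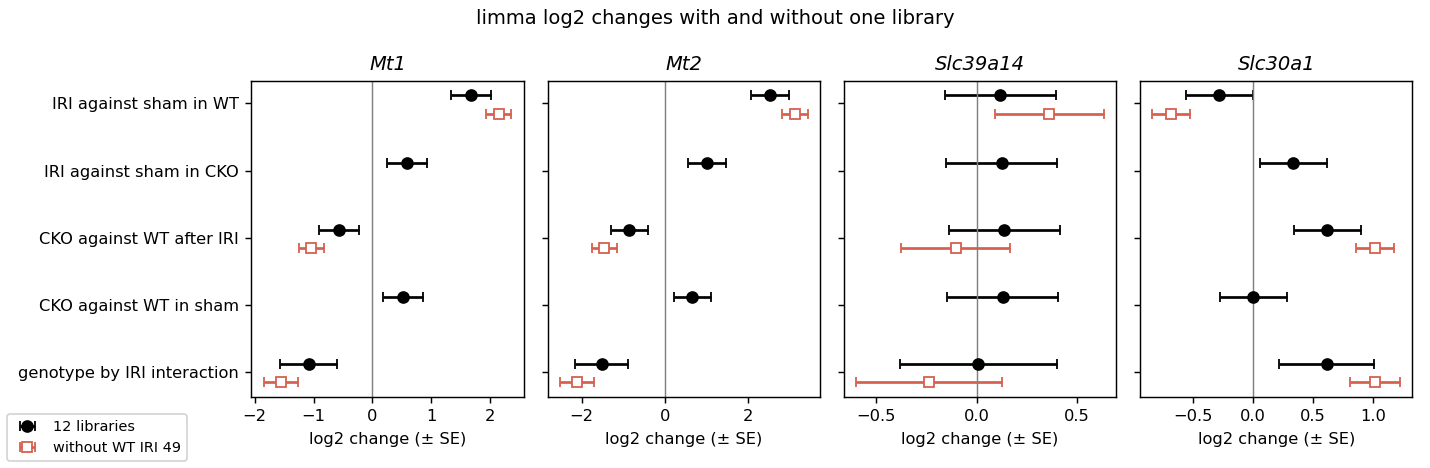
limma log2 changes (x axis, points with 1 SE) of the 4 genes in 5 contrasts, with all 12 libraries (filled circles) and without WT IRI 49 (open squares, shown where that library belongs to a compared group). Leaving it out moves the interaction of Mt2 to -2.11, against -1.51 with all libraries, and that of Slc30a1 to 1.02, against 0.62.

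Among the other zinc transporters, importers were called in both directions after IRI. The remaining 13 Slc39a (ZIP) genes were listed, 10 were tested, and averaged over genotypes 3 rose and 4 fell, against 25.6% and 11.8% of all tested genes, with a median log2 change of -0.16 against 0.10 over all tested genes. Taken by genotype, limma called 0 of the 10 in CKO, against 7.19% of all tested genes. There 4 were at an unadjusted p under 0.05, as were 3000 of all 12469 tested genes. In WT limma called 3 higher and 4 lower, against 25.1% and 11.9% of all tested genes. Slc39a1, which encodes the surface importer ZIP1, measured 37.6 to 57.1 FPKM in the 6 IRI libraries and 30.8 to 32.1 FPKM in the 6 sham libraries, with no overlap (log2 change 0.60, SE 0.10, limma adjusted p = 0.00123). Slc39a5, encoding ZIP5 of the basolateral membrane, measured 23.4 to 47.4 FPKM in the IRI libraries and 56.6 to 61.1 FPKM in the sham libraries, again with no overlap (log2 change -0.71, SE 0.13, limma adjusted p = 0.00232). Slc39a1 averaged 48.6 FPKM in the IRI libraries and 31.4 FPKM in the sham libraries, and Slc39a5 36.3 FPKM in the IRI libraries and 58.5 FPKM in the sham libraries, so that their order differed between the conditions. Slc39a6 rose by 0.52 and Slc39a13, encoding ZIP13 of the Golgi and secretory vesicles, by 0.43 (limma adjusted p = 0.00679 and 0.00874), although the most abundant Slc39a13 transcript taken alone did not pass (0.07, limma adjusted p = 0.828). Slc39a8, which encodes ZIP8, the closest relative of ZIP14, was singled out after its values had been seen. It measured 19.3, 26.3 and 7.25 FPKM in CKO IRI 7, 15 and 29, 4.33, 6.04 and 20.4 FPKM in WT IRI 13, 24 and 49, and 26.5 to 32.8 FPKM in the 6 sham libraries. Its lowest values were in WT IRI 13 and 24, the libraries with the lowest Slc30a1, and its averaged log2 change was -1.33 (SE 0.35, limma adjusted p = 0.0141).

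Of 9 further exporter (Slc30a) genes listed 6 were tested, of which 1 rose and 1 fell averaged over genotypes, where 37.4% of all tested genes were called, with a median log2 change of 0.01. Slc30a4, encoding the vesicular transporter ZnT4, averaged 6.39 ± 1.20 FPKM in CKO IRI and 3.95 ± 0.29 FPKM in CKO sham, and 5.48 ± 0.95 FPKM in WT IRI and 4.41 ± 0.12 FPKM in WT sham (SD, n = 3 each; averaged log2 change 0.41, limma adjusted p = 0.0127). It did not pass after quantile normalization (0.26, limma adjusted p = 0.0796). Slc30a9, the most abundant listed exporter gene, changed by -0.30 (limma adjusted p = 0.0250), but did not pass without CKO IRI 29, CKO sham 2 or any 1 of the WT sham libraries (limma adjusted p up to 0.0599), nor by its most abundant transcript (limma adjusted p = 0.394). Mtf1, the gene of the zinc sensor itself, averaged 2.81 ± 0.73 FPKM in CKO IRI, 3.13 ± 0.48 FPKM in WT IRI, 2.51 ± 0.29 FPKM in CKO sham and 2.67 ± 0.33 FPKM in WT sham (SD, n = 3 each), with an averaged log2 change of 0.14 (limma adjusted p = 0.374) that was -0.037 after quantile normalization. Mt3, the metallothionein best known from brain, was tested too, and neither it nor Mtf1 passed, also not at an unadjusted p under 0.05. Averaged over genotypes, 4 of 10 tested copper-handling genes were at an unadjusted p under 0.05 (limma), as were 5919 of all 12469 tested genes. Of the 10, limma called 2 higher and 0 lower, against 25.6% and 11.8% of all tested genes. The 2 were Cp, encoding the ferroxidase ceruloplasmin (0.73, limma adjusted p = 0.00982), and Slc31a2, encoding a relative of the copper importer CTR1 (0.40, limma adjusted p = 0.0123). Slc31a2 did not pass after quantile normalization (limma adjusted p = 0.0587). Taken by genotype, 0 of the 10 were called in CKO, against 7.19% of all tested genes. There 2 were at an unadjusted p under 0.05 (limma), as were 3000 of all 12469 tested genes. In WT 2 rose and 2 fell, against 25.1% and 11.9% of all tested genes. Those that fell in WT were the copper importer gene Slc31a1 (-1.04, limma adjusted p = 0.0307) and the copper exporter gene Atp7a (-0.51, limma adjusted p = 0.0456). Atp7a lay near the filter of 1 FPKM, at 0.52 to 0.69 FPKM in WT IRI and 1.02 to 1.45 FPKM in WT sham. It passed that filter mainly through sham libraries, so a fall was favoured by the filter. Averaged over genotypes, the copper genes that fell numbered 1 after quantile normalization or without CKO IRI 15, WT IRI 49 or CKO sham 1, 2 after trimmed-mean scaling or without WT IRI 13, and 3 with array weights.

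**Figure D4:**
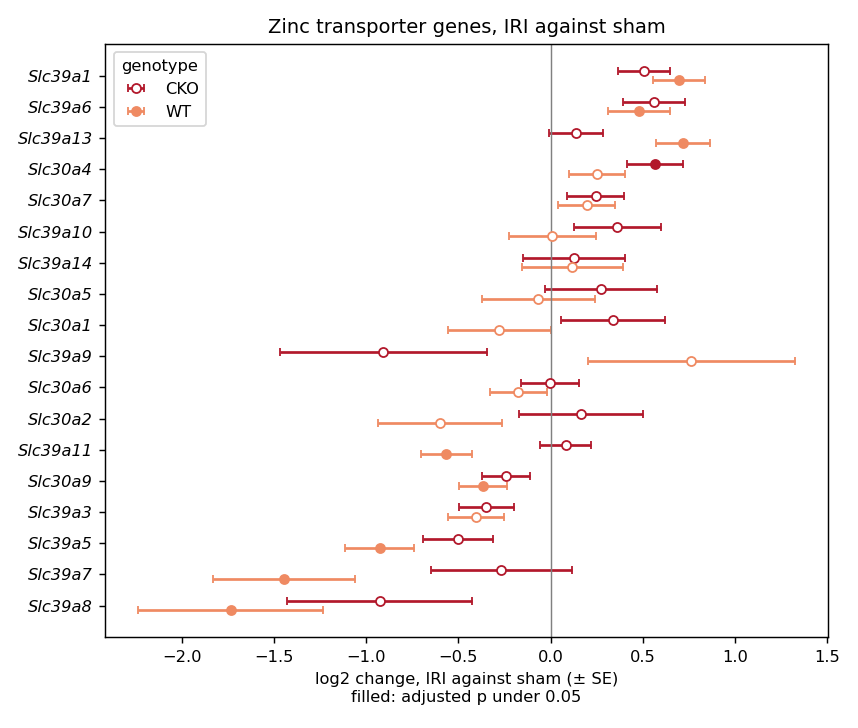
log2 change, IRI against sham, of the 18 tested zinc transporter genes in CKO and in WT (points with 1 SE; filled points passed an adjusted p of 0.05). Slc39a1 lies at 0.51 in CKO and 0.70 in WT, and Slc39a5 at -0.50 in CKO and -0.93 in WT. Slc39a14 and Slc30a1 have open points in both genotypes.

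Genes of the cytokine and hormone pathways known to act on metallothionein transcription were listed separately. Of 14 tested acute phase and STAT3 genes 13 rose and none fell, against 25.6% and 11.8% of all tested genes. Their median log2 change was 1.68 against 0.10 over all tested genes. Saa1 and Hp, counted among the 13, reached at most 0.047 and 0.36 FPKM in the 6 sham libraries. They passed the filter of 1 FPKM only through injured libraries, so a rise was favoured by the filter. Fgb, at 0.66 to 1.16 FPKM in sham, also needed injured libraries to pass it. Socs3, the feedback inhibitor of STAT3 signalling, measured 11.5, 4.08 and 12.8 FPKM in CKO IRI 7, 15 and 29, 30.2, 23.4 and 16.9 FPKM in WT IRI 13, 24 and 49, and 0.87 to 2.30 FPKM in the 6 sham libraries. Its highest values were in WT IRI 13 and 24 and its lowest injured value was in CKO IRI 15, as for Mt2, and its averaged log2 change was 2.57 (SE 0.25, limma adjusted p = 4.22e-05). Other genes of the list differed: Fgg measured 92.0, 14.5 and 108 FPKM in CKO IRI 7, 15 and 29. In WT IRI 13, 24 and 49 Fgg measured 27.5, 21.5 and 26.5 FPKM. Fga, Fgb, Fgg and Saa1 had higher means in CKO IRI than in WT IRI, and the other tested genes of the list lower means. The part of these genes in the metallothionein values was not tested. The oncostatin M receptor gene Osmr rose by 1.56, the lipocalin gene Lcn2, also among the injured-tubule markers, by 5.03 and the protease inhibitor gene Timp1 by 3.83 (limma adjusted p = 3.11e-06, 7.33e-06 and 3.01e-05). Of 11 listed glucocorticoid pathway genes, which include the receptor gene Nr3c1 and Hsd11b2 (neither called), 4 rose and 2 fell averaged over genotypes. These counts were near the 25.6% and 11.8% of all tested genes, with a median of 0.33. Fkbp5 and Zbtb16, named after their values had been seen, had the largest changes, 1.71 and 1.79 (limma adjusted p = 0.0114 and 0.0164). Fkbp5 measured 128, 89.8 and 58.0 FPKM in CKO IRI 7, 15 and 29. It measured 140, 115 and 18.0 FPKM in WT IRI 13, 24 and 49. Zbtb16 measured 8.90, 4.94 and 4.63 FPKM and 13.8, 15.5 and 0.65 FPKM in the same libraries. In the 6 sham libraries Fkbp5 ranged from 14.7 to 32.4 FPKM and Zbtb16 from 0.40 to 2.86 FPKM. WT IRI 49 thus lay within the sham range for both genes. Averaged over genotypes, Ddit4, encoding a stress-induced inhibitor of mTORC1, changed by 1.23, the kinase gene Sgk1 by 0.58, the transcription factor gene Klf9 by -0.51 and Errfi1, a feedback inhibitor gene of the EGF receptor, by -0.44 (limma adjusted p = 0.00908, 0.00923, 0.00991 and 0.0114). For Sgk1 and Errfi1 the average covers values of opposite sign in the genotypes. Sgk1 changed by 1.20 in CKO (limma adjusted p = 0.00504) and by -0.04 in WT (limma adjusted p = 0.880). Errfi1 changed by 0.21 in CKO (limma adjusted p = 0.468) and by -1.09 in WT (limma adjusted p = 0.000850), with a difference of -0.94 between CKO sham and WT sham (limma adjusted p = 0.280). The interaction, 1.25 for Sgk1 and 1.30 for Errfi1, did not pass over all genes (limma adjusted p = 0.181 and 0.148). By its most abundant transcript Errfi1 did not pass (limma adjusted p = 0.0521).

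The genes most like each member over the 12 libraries were ranked by the root mean square difference of log2(FPKM + 1) after each gene was centred on its own mean. For Mt1 they were Micall2 (0.22), D930048N14Rik (0.22) and Anxa1 (0.22), the last encoding annexin A1, against a root mean square deviation of Mt1 itself of 0.74. For Mt2 they were Hmga1b (0.22), a near-identical copy of Hmga1 whose values are uncertain, the phosphatase gene Dusp5 (0.27) and the small heat shock protein gene Hspb1 (0.27), against 1.09 for Mt2 itself. Hspb1 measured 68.6, 52.5 and 81.9 FPKM in CKO IRI 7, 15 and 29, 210, 173 and 76.6 FPKM in WT IRI 13, 24 and 49, 25.4 to 38.2 FPKM in CKO sham and 16.9 to 20.4 FPKM in WT sham. Like Mt2, it was highest in WT IRI 13 and 24 and lowest among injured libraries in CKO IRI 15. Mt1 and Mt2 differed from each other by 0.39, since Mt2 moved further. For Slc30a1 the nearest genes were Rtn4r (0.14), encoding the Nogo receptor, the amino acid transporter gene Slc6a20a (0.15) and Stk32a (0.16), against 0.38 for Slc30a1 itself. For Slc39a14 they were Spice1 (0.16), the nuclear receptor gene Rora (0.17) and Psmf1 (0.17), a proteasome inhibitor gene, against 0.32 for Slc39a14 itself.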

How the data were processed

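Libraries were strand-marked by dUTP, per the labels' protocols. The submitters' processing notes list StringTie, HISAT2 2.1.0 and cutadapt, and name a human build (GRCh38) although the transcripts are mouse. The authors deposited 1 table of transcripts by libraries, read here as FPKM. The header names no unit, and TPM would differ by 1 factor per library. Every transcript had a mean of at least 0.5 FPKM in some group.

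Transcripts were matched without version to GENCODE M21 (GRCm38), 25740 of 25790, and summed per gene. Low values of single-transcript genes lay within 0.1 of whole reads in at most 54.5% of cases, so reads were not recovered and no count test was run. On the log2(FPKM + 1) scale, limma 3.58.1 (R 4.3.3) fitted 1 mean per group and a mean-variance trend over 12469 genes with at least 1 FPKM in 3 libraries. Tests were two-sided with Benjamini-Hochberg adjustment over all tested genes in each of 6 contrasts, and a call was an adjusted p under 0.05. The log2(FPKM + 1) scale understates changes of low genes. The fit was tested on simulated data.

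Members and gene lists were chosen with earlier results of these data known. Named genes were the members, Gpx3, the 3 genes most like each member, and in each list up to 4 genes called over both genotypes with the smallest p, or the most abundant gene where fewer than 2 were called. Alternatives were another pseudocount, filters, scalings, fits of only the compared groups, array weights, the most abundant transcript, a replicate block and leaving out each library.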

Additional observations from a re-analysis of the deposited data

How the results depend on the processing

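The rise of Mt1 and Mt2 after IRI in WT, and over both genotypes, kept its direction and passed under every scaling, filter, pseudocount and weighting tried, by the most abundant transcript and without any 1 library. A fit of only the compared groups, run for WT but not for the average of both genotypes, kept it in WT. Leaving out 1 library moved it between 1.32 and 2.14 for Mt1 and between 2.20 and 3.12 for Mt2 in WT. Array weights called 3 of the 4 members in CKO after IRI (Mt1, Mt2 and Slc39a14) and 1 between genotypes after IRI (Slc30a1), against 0 and 0 without weights. Members called without 1 library numbered 2 to 3 for IRI in WT, 0 to 3 between genotypes after IRI and 0 to 3 for the interaction, the 3 always without WT IRI 49.

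Genes called numbered 896 for IRI in CKO, but 476 in a fit of only the compared groups, 3551 with array weights, 542 by the most abundant transcript, and 397 to 1452 without 1 library. Between genotypes after IRI they numbered 5, but 1 with a filter of 5 FPKM, 0 with only the compared groups (limma), 723 with array weights, 16 by transcript and 5 to 1397 without 1 library. For the interaction they numbered 2, but 1 with the filter of 5 FPKM, 4 after quantile normalization, 841 with array weights, 9 by transcript and 2 to 579 without 1 library, the 579 without WT IRI 49. Between sham genotypes they numbered 0, but 1 with a pseudocount of 0.1, 2 with no filter, 11 with only the compared groups, 124 with array weights and 0 to 2 without 1 library. The cause of these moves was not tested.

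Signs turned only for genes with small changes. Quantile normalization gave -0.012 for Slc39a14 in WT, -0.085 for Slc30a1 over both genotypes and -0.037 for Mtf1, trimmed-mean scaling gave -0.061 for Slc30a1 over both genotypes, and the most abundant transcript gave -0.16 for the Slc39a14 interaction. Without 1 library, Slc39a14 ranged from -0.15 to 0.35 in CKO, -0.043 to 0.36 in WT, -0.018 to 0.24 over both genotypes, -0.14 to 0.36 between genotypes after IRI, -0.020 to 0.27 between sham genotypes and -0.27 to 0.23 for the interaction. Slc30a1 ranged from -0.17 to 0.14 over both genotypes and from -0.014 to 0.033 between sham genotypes. The median change of all genes for IRI in WT was 0.12, -0.02 after quantile normalization and 0.02 after trimmed-mean scaling.

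A replicate block could be fitted only between the sham groups, whose numbers are shared, and gave 0.52 for Mt1 (limma adjusted p = 0.333) and 0.66 for Mt2 (limma adjusted p = 0.330), with 0 genes called. Same-numbered sham libraries did not deviate together (r = 0.004, -0.03 and -0.002), so the numbers are not taken as pairs. The read depth is unknown, so no counting error can be given for low genes.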
